A study of Mus musculus with 6 samples.

Results

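The mitochondrial ribosomal protein genes were followed in mouse haematopoietic stem cells in which the beta-catenin gene is floxed. Members were all genes whose single annotated symbol is Mrpl or Mrps followed by a number, which gave 74 of the 20416 genes measured. Of these, 46 are named as large subunit proteins (Mrpl) and 28 as small subunit proteins (Mrps). RNA came from bone marrow cells sorted by the stem cell gate KLS CD34-, which takes cells with c-Kit and Sca-1 but without lineage markers or CD34 at the surface, and was measured on 6 arrays. The 3 floxed arrays carried floxed beta-catenin alleles and were positive for vav-Cre, a recombinase driven by the promoter of Vav, which is active throughout the blood-forming lineage. The 3 control arrays are labelled only as control, so whether those mice carried floxed alleles or the transgene is not given in the sources used here, nor are strain, age or sex. The labels leave it unsaid whether each replicate was its own animal or a pool. All p-values here therefore rest on the spread among these samples, part or all of which may be technical.

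Mitochondria keep a ribosome of their own, in which RNAs encoded by the mitochondrial genome are joined by proteins that are encoded in the nucleus, made in the cytosol and imported. This mitoribosome translates only the few messages of the mitochondrial genome, all of them for subunits of the oxidative phosphorylation complexes. Some of its proteins descend from those of bacterial ribosomes, and the rest are found only in mitochondria. Haematopoietic stem cells are known for low mitochondrial respiration at rest and for raising it when they are activated.

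The targeted gene was read first. Ctnnb1, which encodes beta-catenin, had gene values of 10.39, 10.15 and 10.57 on the floxed arrays, against 11.18, 11.49 and 11.34 on the control arrays. All values are log2 signals, and a gene's value is the median over its probe sets on that array. The floxed arrays were all lower and the groups did not overlap, but the gene value missed the threshold (log2 difference -0.97, SE 0.14, limma adjusted p = 0.125, with 0.000155 to 0.988 over 16 alternative settings). Of its 17 probe sets, 5 passed on their own, with differences of -6.90 to -2.51. The others had differences of -0.28 to 0.48, and the gene value is the median over all 17. Over the 16 alternative settings the difference of the gene value ran from -1.53 to -0.16. Across all genes 2 passed, namely Mup10 with a difference of -2.02 and Sva with 2.73, both named after their values were seen. Of the genes that define the gate, Kit differed by -0.10, Ly6a (Sca-1) by -0.017 (-0.13 without control replicate 3) and Cd34 by -0.032, none past the threshold. A CD34 negative surface does not require a low Cd34 message, and without detection calls no gene could be called absent.

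By correlation, control replicate 3 stood apart from the other arrays. Across genes, its correlations with the other arrays were 0.970 to 0.978, whereas pairs without it reached 0.978 to 0.991. The floxed arrays correlated with each other at 0.989 to 0.991 and the control arrays at 0.970 to 0.978. Array weights estimated by limma were lowest for control replicate 1 (0.38) and control replicate 3 (0.43), and 1.26 to 2.04 on the others. The differences of subunits, lists and named members are therefore given with and without control replicate 3. As these are sorted populations measured in bulk, fewer cells of a type and less RNA per cell cannot be told apart.

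Most mitochondrial ribosomal protein genes had slightly higher means in floxed cells, and no single one passed the test. A positive difference was found for 39 of 46 large subunit genes (84.8%) and 22 of 28 small subunit genes (78.6%), beside 49.8% of all genes. The median difference was 0.16 log2 in the large subunit and 0.15 in the small, beside -0.00083 over all genes. Differences ran from -0.25 to 0.65 among Mrpl genes and from -0.15 to 0.64 among Mrps genes. None of the 74 members passed an adjusted p of 0.05 in limma, with a smallest value of 0.915, and 0.0098% of all genes did. At an unadjusted p under 0.05 there were 5 members higher (6.76%, beside 2.71% of all genes) and 0 lower (beside 2.52%). The 5 were Mrpl13, Mrpl11, Mrpl23, Mrpl39 and Mrps18c. The floxed and control values did not overlap for 9 members, all higher in floxed cells (12.2%, beside 5.05% of all genes), and for 0 members lower (beside 5.49%). The 95% confidence interval lay within a 1 log2 change in either direction for 71 of 74 members, beside 19619 of all 20416 genes.

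Without control replicate 3 this excess was smaller. The count of positive differences was then 29 large subunit genes (63.0%) and 17 small subunit genes (60.7%), beside 46.7% of all genes. Medians were 0.064 log2 in the large subunit and 0.092 in the small, beside -0.014 over all genes. Values of the groups then did not overlap for 10 members higher in floxed cells, beside 7.41% of all genes, and for 6 lower, beside 10.8%. Unadjusted p stayed under 0.05 for Mrpl11 and Mrpl13 alone among the members, beside 1.65% of all genes higher and 2.84% lower, and 0 genes of the whole table passed the adjusted threshold.

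**Figure D1:**
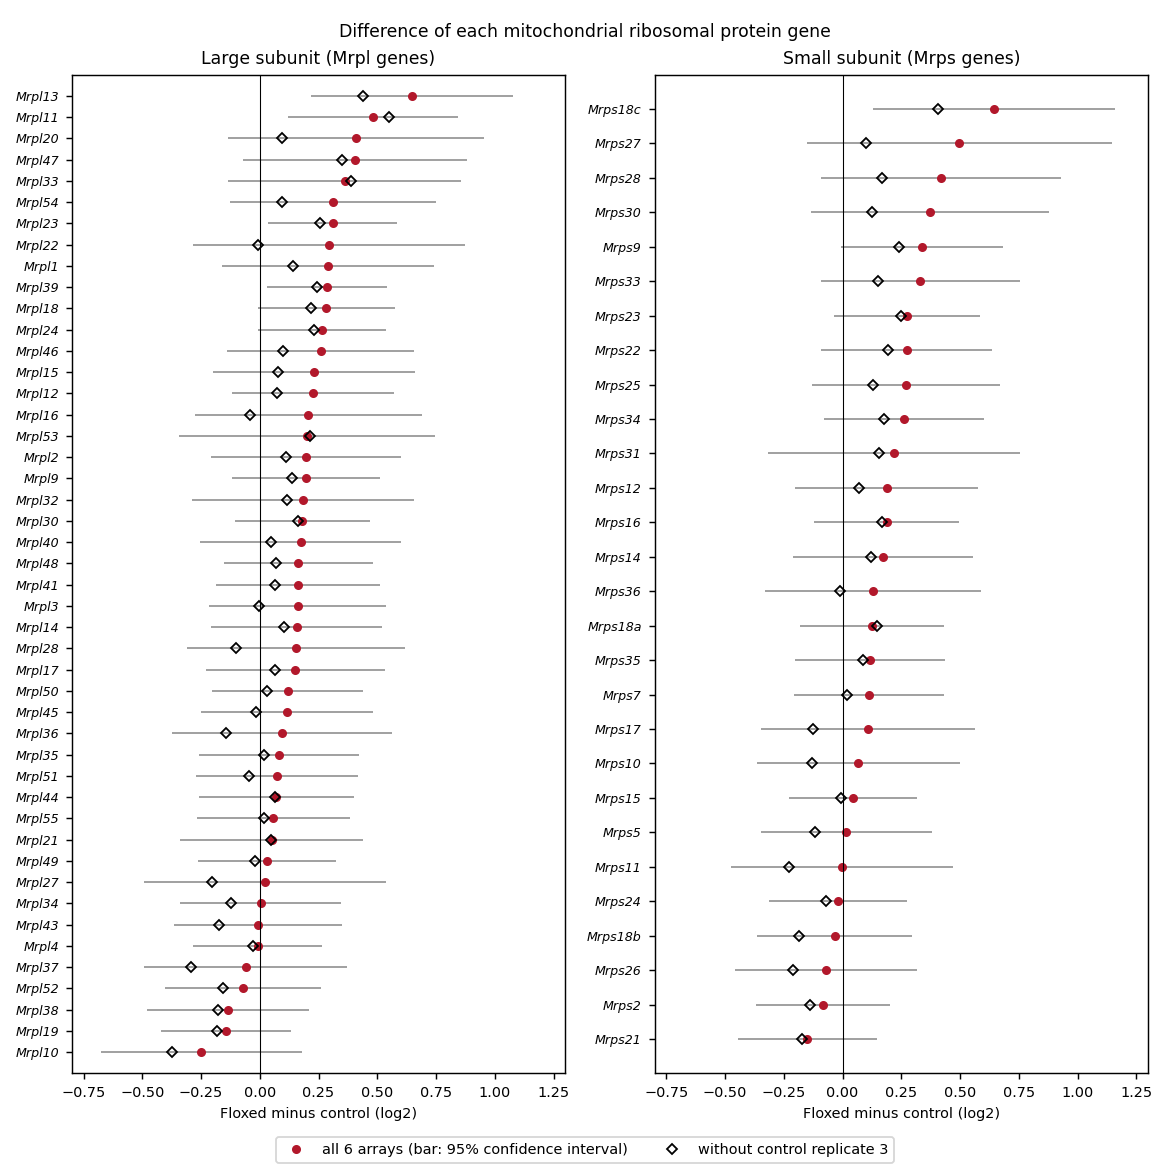
Each row is a gene and the x axis is the floxed minus control difference in log2, with filled points and 95% confidence intervals for all 6 arrays and open diamonds for the same difference without control replicate 3. Most filled points lie right of 0 (39 of 46 Mrpl and 22 of 28 Mrps genes), and most diamonds lie left of their point. Of the intervals 69 of 74 include 0, beside 19348 of 20416 over all genes.

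In the large subunit the smallest p belonged to Mrpl13, whose protein has a bacterial counterpart in the same subunit. Mrpl13 had 9.44, 9.02 and 9.29 on the floxed arrays, against 8.89, 8.73 and 8.18 on the control arrays. All 3 floxed values were above all 3 control values, and control replicate 3 was the lowest. The difference was 0.65 log2 (SE 0.20, 95% confidence interval 0.22 to 1.08), or 0.44 without control replicate 3. It did not pass the threshold (limma adjusted p = 0.915, and 0.164 or more under every alternative). The exact two-sided permutation p of a gene whose groups do not overlap is 0.1, the smallest that 3 against 3 arrays can give.

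Mrpl11 sits at the base of the stalk, the flexible arm of the large subunit to which translation factors bind. Its values were 8.18, 8.39 and 8.37 on the floxed arrays, against 7.93, 7.60 and 7.97 on the control arrays. The groups did not overlap, and here control replicate 2 was the lowest array rather than control replicate 3. The difference was 0.48 (SE 0.17) with all arrays and 0.55 without control replicate 3, with a limma adjusted p of 0.915. The neighbouring stalk protein gene Mrpl10 had the opposite sign, with 8.67, 9.11 and 9.42 on the floxed arrays, against 9.50, 9.38 and 9.07 on the control arrays. These ranges overlap, because floxed replicates 2 and 3 lie within the control values while floxed replicate 1 is the lowest of the 6 arrays. Its difference of -0.25 (SE 0.19) was the lowest of all 74 members and did not pass (limma adjusted p = 0.916). It was -0.37 without control replicate 3, and between -0.054 without floxed replicate 1 and -0.43 without floxed replicate 3. Mrpl12, the stalk protein that recruits factors and is also reported to bind the mitochondrial RNA polymerase, differed by 0.23, and by 0.071 without control replicate 3. Of the 5 stalk genes 4 had a positive difference, with a median of 0.23, which was 0.096 without control replicate 3. Leaving out control replicate 1 gave 0.46 for the stalk.

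The 8 genes for proteins around the exit of the peptide tunnel, where the new chain meets the inner membrane, all had positive differences, with a median of 0.28. Without control replicate 3, 6 of the 8 did, with a median of 0.15. Mrpl23 had 10.73, 10.76 and 10.80 on the floxed arrays, against 10.66, 10.35 and 10.34 on the control arrays. Its floxed values lay close together and just above control replicate 1, and the other control arrays were lower. The difference was 0.31 (SE 0.13), or 0.25 without control replicate 3. Mrpl39 had 10.71, 10.67 and 10.61 on the floxed arrays, against 10.34, 10.50 and 10.29 on the control arrays, which again did not overlap. Its difference was 0.29 (SE 0.12), or 0.24 without control replicate 3, and 0.060 with probe sets above the median signal. Mrpl24 had 10.22, 10.11 and 10.02 on the floxed arrays, against 9.83, 9.95 and 9.78 on the control arrays, again without overlap. Its difference was 0.26 (SE 0.12), or 0.23 without control replicate 3. Mrpl47 differed by 0.41 (SE 0.22) with overlapping groups, by 0.35 without control replicate 3 and by 0.13 with the mean of its probe sets. Mrpl45, which tethers the ribosome to the inner membrane, differed by 0.12, and by -0.014 without control replicate 3. Mrpl44, a protein with the fold of a ribonuclease, differed by 0.070, and by 0.065 without control replicate 3.

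The central protuberance is the crest of the large subunit that faces the head of the small one. Of its 6 genes 5 had a positive difference, with a median of 0.17, or 0.058 without control replicate 3. Mrpl18 had 9.36, 9.46 and 9.54 on the floxed arrays, against 9.22, 9.25 and 9.04 on the control arrays. The groups did not overlap, and the difference was 0.28 (SE 0.13), or 0.22 without control replicate 3. Mrpl38, another protein of the crest, differed by -0.14 with overlapping values, and by -0.18 without control replicate 3. Mrpl19, whose protein has a bacterial counterpart, likewise had a difference of -0.14, with 9.58, 9.72 and 9.80 on the floxed arrays, against 9.87, 9.89 and 9.77 on the control arrays. Those groups overlapped too, and without control replicate 3 the difference was -0.18. Of the other named large subunit genes, Mrpl33 differed by 0.36, Mrpl3 by 0.16 and Mrpl34 by 0.0035. In the fit without control replicate 3, Mrpl33 differed by 0.39, Mrpl3 by -0.0014 and Mrpl34 by -0.12. None of these passed the threshold in limma.

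In the small subunit the smallest p belonged to Mrps18c, 1 of 3 mammalian genes descended from the bacterial protein S18. Mrps18c had 7.88, 7.76 and 7.55 on the floxed arrays, against 7.58, 7.07 and 6.61 on the control arrays. The groups overlapped by a narrow margin, since floxed replicate 3 was just below control replicate 1, and control replicate 3 was the lowest. The difference was 0.64 (SE 0.23, limma adjusted p = 0.915), or 0.41 without control replicate 3. Its paralogues had smaller differences, 0.13 for Mrps18a and -0.033 for Mrps18b, or 0.15 for Mrps18a and -0.18 for Mrps18b without control replicate 3. By structure the Mrps18a protein sits in the large subunit, as does that of Mrps30, which differed by 0.37 (SE 0.23), or 0.13 without control replicate 3.

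Mrps9, a protein of the head of the small subunit with a bacterial counterpart, had 8.71, 8.81 and 8.65 on the floxed arrays, against 8.36, 8.61 and 8.18 on the control arrays. The groups did not overlap, although floxed replicate 3 was only just above control replicate 2. Its difference was 0.34 (SE 0.16), or 0.24 without control replicate 3. Mrps34, which is specific to mitochondria, had 8.22, 8.33 and 8.43 on the floxed arrays, against 8.15, 8.15 and 7.89 on the control arrays. These values did not overlap either, with a difference of 0.26 (SE 0.15), or 0.17 without control replicate 3, but the difference was -0.17 when only probe sets above the 75th percentile of signal were kept. Mrps27, a protein of the pentatricopeptide repeat family of RNA binders, had 7.93, 8.34 and 8.41 on the floxed arrays, against 8.27, 7.99 and 6.93 on the control arrays. Control replicate 3 alone lay far below the rest, so the difference of 0.50 (SE 0.30) became 0.098 without it. It was -0.086 with probe sets above the 75th percentile of signal.

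The groups overlapped for all remaining named small subunit genes. Mrps28 differed by 0.42, Mrps33 by 0.33 and Mrps23 by 0.27. With control replicate 3 left out, Mrps28 differed by 0.17, Mrps33 by 0.15 and Mrps23 by 0.25. Mrps22, in which mutations cause mitochondrial disease in humans, differed by 0.27, and by 0.19 without control replicate 3. Mrps12, a protein of the decoding centre, and Mrps16 both differed by 0.19, but without control replicate 3 Mrps12 differed by 0.070 and Mrps16 by 0.17. Mrps5, which lines the entry of the messenger RNA, differed by 0.016, and by -0.12 without control replicate 3. Mrps2 differed by -0.085, Mrps26 by -0.069 and Mrps11 by -0.0032, and without control replicate 3 Mrps2 differed by -0.14, Mrps26 by -0.21 and Mrps11 by -0.23. Mrps15 differed by 0.045 and Mrps36, whose protein is now known as a component of the oxoglutarate dehydrogenase complex, by 0.13. In the fit without control replicate 3, Mrps15 differed by -0.0053 and Mrps36 by -0.011. The lowest difference in the subunit was that of Mrps21, with 10.51, 10.44 and 10.54 on the floxed arrays, against 10.89, 10.44 and 10.60 on the control arrays. Its floxed values lay near those of control replicates 2 and 3, and control replicate 1 was the highest, for a difference of -0.15 (SE 0.13), or -0.17 without control replicate 3 and -0.027 without control replicate 1.

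**Figure D2:**
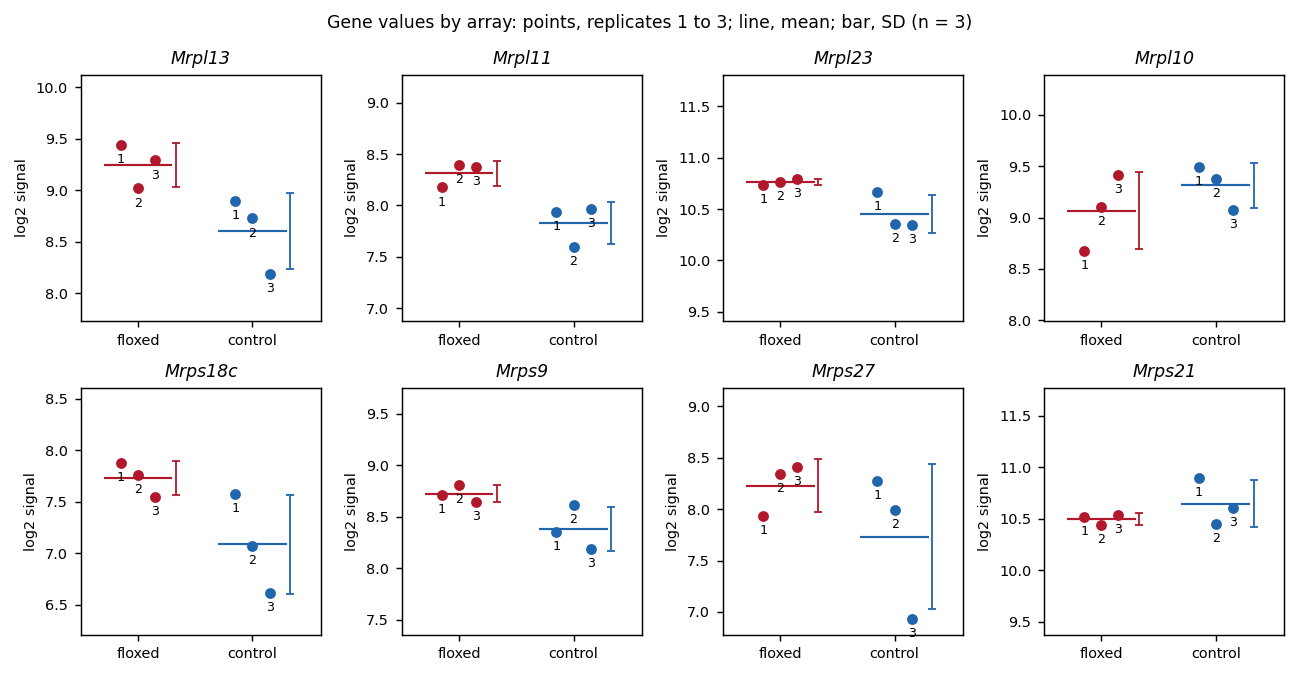
Each panel shows the log2 signal of a gene on the floxed arrays (left) and control arrays (right), with points numbered by replicate, a line at the mean and a bar for the SD (n = 3 each). Every y axis spans the same range around the gene's own mean, and control replicate 3 is the lowest array for Mrpl13, Mrpl23, Mrps18c, Mrps9 and Mrps27.

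The members were also split by the ancestry of their proteins. Those with a bacterial homologue had a positive difference in 38 of 46 cases (82.6%, median 0.17), and those specific to mitochondria in 23 of 28 (82.1%, median 0.16). Without control replicate 3 the counts were 27 with a bacterial homologue (58.7%, median 0.068) and 19 specific to mitochondria (67.9%, median 0.066). The difference between these classes was not tested.

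Array by array, the members varied more among the control arrays than among the floxed arrays. The level of a subunit on an array is the median deviation of its genes from their own means over the 6 arrays. For the large subunit it was 0.051, 0.037 and 0.12 log2 on the floxed arrays, against 0.14, -0.063 and -0.27 on the control arrays. For the small subunit it was 0.012, 0.072 and 0.14 on the floxed arrays, against 0.14, 0.00033 and -0.29 on the control arrays. Control replicate 3 thus had the lowest level in both subunits, while control replicate 1 was the highest of all arrays in the large subunit and close to floxed replicate 3 in the small. The level over all genes was -0.032, 0.0048 and 0.025 on the floxed arrays, against 0.0089, 0.023 and -0.043 on the control arrays, a much narrower span. Array medians of 7.56 to 7.65 hold that level near 0, so it is a limited reference for a short list. The level of the respiratory complex I genes ran from 0.16 on floxed replicate 3 to -0.26 on control replicate 3.

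**Figure D3:**
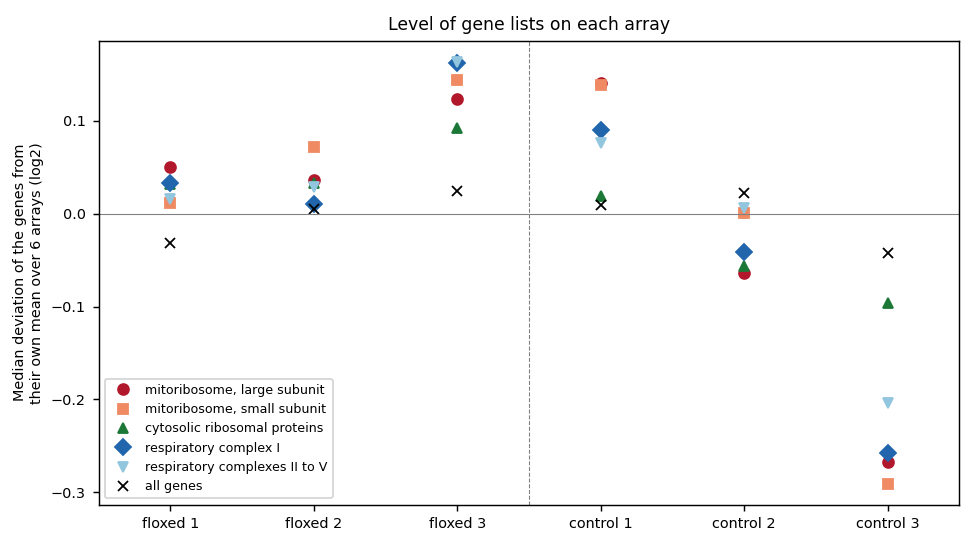
The y axis is the level of each gene list in log2 (median deviation of its genes from their own mean over 6 arrays), for the floxed arrays on the left and the control arrays on the right. Both mitoribosomal subunits span 0.14 to below -0.26 within the control arrays alone, and crosses mark the level over all genes.

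Control replicate 3 held the lowest of the 6 values for 31 of 46 Mrpl genes (67.4%) and 18 of 28 Mrps genes (64.3%), beside 29.5% of all genes. It held the highest value for 0 of the 74 members, beside 23.1% of all genes. Control replicate 1 held the highest value for 23 of 74 members (31.1%), beside 20.7% of all genes. Control replicate 1 exceeded control replicate 3 in 41 of 46 Mrpl genes and 24 of 28 Mrps genes, by a median of 0.41 and 0.40 log2, beside 52.8% and 0.035 over all genes. These gaps within the control group were larger than the floxed minus control medians of 0.16 and 0.15. The gaps, however, compare single arrays picked as the control extremes of these same genes. The medians compare means of 3 arrays, so the gaps are no test of the medians. All 3 floxed values fell inside the range of the control values for 17 Mrpl genes (37.0%) and 8 Mrps genes (28.6%), beside 33.1% of all genes.

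**Figure D4:**
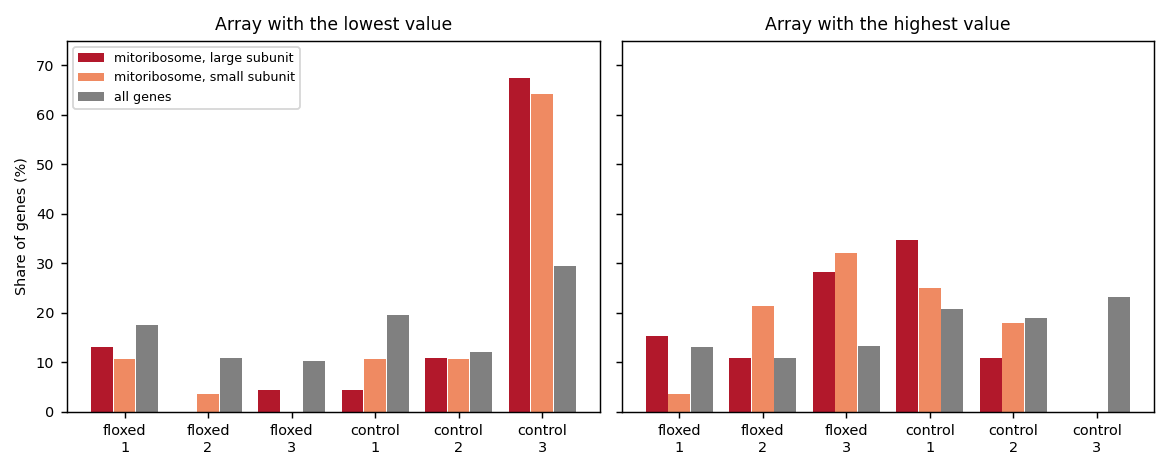
Bars give the share of genes (%) whose lowest value (left panel) or highest value (right panel) came from each array, for both subunits and for all genes. Control replicate 3 holds the lowest value for 67.4% of large subunit and 64.3% of small subunit genes, against 29.5% of all genes.

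The mean over the floxed arrays was above control replicate 3 for 70 of 74 members (94.6%, beside 54.9% of all genes), above control replicate 2 for 51 (68.9%, beside 44.9%) and above control replicate 1 for 31 (41.9%, beside 48.5%). The SD between replicates was larger in the control group for 36 of 46 Mrpl genes (78.3%) and 23 of 28 Mrps genes (82.1%), beside 70.9% of all genes. In the large subunit the median SD was 0.13 log2 in floxed and 0.25 in control arrays, and in the small subunit 0.11 in floxed and 0.27 in control arrays. Over all genes it was 0.15 in floxed and 0.23 in control arrays. The size of the median difference depended on control replicates 1 and 3. Leaving out control replicate 1 gave a median difference of 0.26 in the large subunit and 0.21 in the small, whereas leaving out control replicate 3 gave 0.064 and 0.092.

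**Figure D5:**
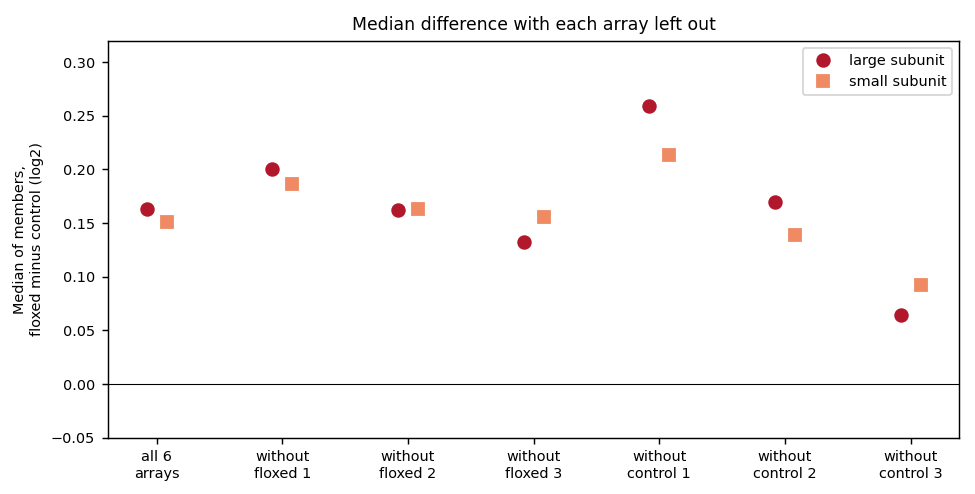
The y axis is the median floxed minus control difference in log2 over the members of each subunit, with all 6 arrays and with each array left out in turn. The median stays above 0 in every case and is highest without control replicate 1 (0.26 and 0.21) and lowest without control replicate 3 (0.064 and 0.092).

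Single probe sets, the same data from which the gene values were taken, gave a similar picture with all 6 arrays. They were not counted without control replicate 3. The members had 435 probe sets with 1 symbol, between 1 and 15 each, and 330 of these (75.9%) had a positive difference, beside 53.9% of all probe sets. The median was 0.13 log2 for the large subunit and 0.18 for the small, beside 0.027 over all probe sets. In limma 0 member probe sets passed the threshold, beside 0.00283% of all. An unadjusted p under 0.05 with a positive difference was found for 39 of the 435, beside 2.67% of all. None was lower at that level, beside 1.78% of all. All 7 probe sets of Mrpl13 were higher in floxed cells, by 0.027 to 0.90 log2. Likewise all 5 of Mrpl11, all 6 of Mrpl23 and all 5 of Mrps18c were higher, the last by at least 0.37. For Mrps9 it was 11 of 12. By contrast, 2 of 7 probe sets of Mrpl10, 1 of 6 of Mrpl19 and 0 of 3 of Mrps21 were higher.

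Promoters were taken from RefSeq sequences of the build GRCm38.p6, in which 65 of the 74 members matched, 40 large subunit and 25 small subunit genes. Mrpl13, Mrpl15, Mrpl19, Mrpl38, Mrpl4, Mrpl54, Mrps28, Mrps34 and Mrps35 were without an entry. The 4 shown are those of the matched members with the smallest p in each subunit, shown because their differences were the least uncertain relative to their size. Each is the 250 bases before the annotated start, on the plus strand: Mrpl11 at chr19:4962056-4962305, Mrpl23 at chr7:142532782-142533031, Mrps18c at chr5:100798509-100798758 and Mrps9 at chr1:42850983-42851232. Capitals mark matches, on either strand, to any of the 6 motifs searched.
Mrpl11: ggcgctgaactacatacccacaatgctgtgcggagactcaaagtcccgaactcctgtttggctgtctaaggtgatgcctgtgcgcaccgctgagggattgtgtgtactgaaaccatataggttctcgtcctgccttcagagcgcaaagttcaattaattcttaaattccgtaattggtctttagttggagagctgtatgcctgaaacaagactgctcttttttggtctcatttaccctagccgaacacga
Mrpl23: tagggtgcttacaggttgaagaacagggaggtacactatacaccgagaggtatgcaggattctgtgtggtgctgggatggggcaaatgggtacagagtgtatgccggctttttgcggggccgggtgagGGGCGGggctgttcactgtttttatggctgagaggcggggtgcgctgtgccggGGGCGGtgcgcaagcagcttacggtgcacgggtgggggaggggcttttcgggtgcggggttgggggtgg
Mrps18c: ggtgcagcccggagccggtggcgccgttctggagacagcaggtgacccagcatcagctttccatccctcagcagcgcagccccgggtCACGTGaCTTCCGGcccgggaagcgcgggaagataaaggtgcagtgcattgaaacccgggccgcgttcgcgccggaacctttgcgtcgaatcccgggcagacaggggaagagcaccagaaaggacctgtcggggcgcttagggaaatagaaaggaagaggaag
Mrps9: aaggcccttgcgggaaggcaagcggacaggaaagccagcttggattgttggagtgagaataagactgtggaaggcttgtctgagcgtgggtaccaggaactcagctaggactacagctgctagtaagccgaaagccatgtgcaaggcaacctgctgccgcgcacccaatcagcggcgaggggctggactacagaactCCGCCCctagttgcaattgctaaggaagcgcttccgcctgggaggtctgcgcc
Mrpl11 held no match to any of the motifs. Mrpl23 and Mrps9 held the SP/KLF letters, and Mrps18c an E-box followed within the same stretch by an ETS match.

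The motifs were ETS (CCGGAAG), NRF1 (GCGC, any 2 bases, GCGC), YY1 (AANATGGC), SP/KLF (GGGCGG), E-box (CACGTG) and TCF/LEF (CTTTGAT), each read on both strands. ETS factors, NRF1 and YY1 are known regulators of nuclear genes for mitochondrial proteins, and TCF/LEF factors are the partners of beta-catenin on DNA. ETS letters stood in 15 of 65 member promoters (23.1%), beside 9.59% of the 13672 promoters of genes on the arrays. For NRF1 the share was 13.8% of members, beside 7.64%, with 20.0% in the large subunit and 4.0% in the small. YY1 letters were found in 10.8% of member promoters, beside 3.77%. SP/KLF letters were found in 46.2%, beside 46.5%, and E-box letters in 7.69%, beside 7.1%. TCF/LEF letters stood in 0 of 65 member promoters, beside 2.83%. The median GC content was 58.4% in member promoters and 56.8% in those of all genes on the arrays. A match is a description of the letters and not a binding site, and a missing match says only that these letters are not in this window.

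Mitoribosomal proteins under other symbols, and the factors that build and use the ribosome, had list medians between 0.012 and 0.19. Of 6 proteins under other symbols 4 had a positive difference (median 0.089, or 0.018 without control replicate 3). Chchd1 among them had 9.37, 9.34 and 9.19 on the floxed arrays, against 9.15, 8.77 and 8.47 on the control arrays. The groups did not overlap and the difference was 0.50 (SE 0.18, limma adjusted p = 0.915), or 0.34 without control replicate 3. Ptcd3, a pentatricopeptide repeat protein of the small subunit, differed by 0.40, and Gadd45gip1, a protein of the large subunit, by -0.0091. With control replicate 3 left out, Ptcd3 differed by 0.27 and Gadd45gip1 by -0.14.

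Of 20 measured assembly and ribosomal RNA maturation genes 13 had a positive difference (median 0.11, or 0.046 without control replicate 3). Rnmtl1, a methyltransferase for the large ribosomal RNA of mitochondria, had 7.77, 7.91 and 7.99 on the floxed arrays, against 7.58, 7.29 and 7.29 on the control arrays. Those values did not overlap and differed by 0.50 (SE 0.17, limma adjusted p = 0.915), or by 0.46 without control replicate 3 and by 0.18 with the mean of probe sets. Mterfd1, which takes part in assembly of the mitoribosome, differed by 0.43 and Mpv17l2 by -0.14. In the fit without control replicate 3, Mterfd1 differed by 0.27 and Mpv17l2 by -0.11.

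Among 13 translation factor genes 9 had a positive difference (median 0.19, or 0.028 without control replicate 3). Mtfmt, which formylates the initiator methionine, differed by 0.27, the release factor gene Mtrf1 by 0.25, and Oxa1l, the insertase that receives new chains at the inner membrane, by -0.073. With control replicate 3 left out, Mtfmt differed by 0.13, Mtrf1 by 0.15 and Oxa1l by -0.16. Of 16 mitochondrial aminoacyl-tRNA synthetase genes 9 had a positive difference (median 0.012, or -0.055 without control replicate 3). Fars2, which charges phenylalanine, differed by 0.38 without overlap of the groups, Rars2, for arginine, by 0.31 and Iars2, for isoleucine, by 0.22. In the fit without control replicate 3, Fars2 differed by 0.23, Rars2 by 0.28 and Iars2 by 0.11. Of 17 genes for mitochondrial transcription and RNA handling 13 had a positive difference (median 0.18, or 0.089 without control replicate 3). Mtpap, the mitochondrial poly(A) polymerase, differed by 0.26, Tfam, which packages mitochondrial DNA and starts its transcription, by 0.35, and Hsd17b10, a subunit of the mitochondrial ribonuclease P, by 0.14. Without control replicate 3, Mtpap differed by 0.25, Tfam by 0.15 and Hsd17b10 by 0.11, and Mtpap differed by 0.0065 with probe sets above the 75th percentile of signal. None of the genes in these 5 lists passed the threshold in limma, with a smallest adjusted p of 0.915.

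Lists outside mitochondrial translation were set beside the members. Of 66 cytosolic ribosomal protein genes 52 had a positive difference (median 0.099, or 0.062 without control replicate 3), and control replicate 3 was their lowest array in 31.8% of cases. Of 35 genes for respiratory complex I 27 had a positive difference (median 0.18, or 0.084 without control replicate 3), and control replicate 3 was lowest in 62.9%. Complexes II to V had 30 of 38 (median 0.071, or 0.040 without control replicate 3), and the cell cycle list 19 of 28 (median 0.14, or 0.065 without control replicate 3). Control replicate 3 was lowest for 50.0% of the genes of complexes II to V and 64.3% of the cell cycle genes, so a share near that of the mitoribosomal members was not limited to mitochondrial genes. Positive differences made up 78.8% of the cytosolic ribosomal list, 77.1% of complex I, 78.9% of complexes II to V and 67.9% of cell cycle. Groups without overlap, higher in floxed cells, made up 16.7%, 25.7%, 10.5% and 10.7% in that order, beside 12.2% of members. For an unadjusted limma p under 0.05 and higher it was 15.2%, 14.3%, 0% and 7.14%, beside 6.76% of members. Such shares were thus not limited to the mitoribosomal genes. No difference between lists was tested, and 0 of their genes passed the threshold. The genes with the smallest p were Rpl37 of the cytosolic ribosome with 0.43, Ndufs6 of complex I with 0.51, Atp5f1 of the ATP synthase with 0.24 and Birc5, a mitotic survival protein, with 0.53, in each case without overlap of the groups. With control replicate 3 left out, Rpl37 differed by 0.41, Ndufs6 by 0.45, Atp5f1 by 0.20 and Birc5 by 0.46.

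Markers of other blood cells also varied between arrays. Of 13 granulocyte and macrophage markers 12 had a negative difference, with a median of -0.21 (-0.53 without control replicate 3), and the list level was -0.33, -0.31 and 0.13 on the floxed arrays, against 0.40, 0.39 and -0.48 on the control arrays. This list was therefore lowest on control replicate 3, as were the mitoribosomal genes, and high on the other control arrays. The level of 6 B cell markers was -0.25, -0.088 and 0.41 on the floxed arrays, against 0.72, 0.26 and -0.87 on the control arrays. It was highest on control replicate 1 and lowest on control replicate 3, the same extreme arrays as for the Mrpl genes, and its median difference was 0.074 with all arrays and -0.50 without control replicate 3. Of 8 erythroid and megakaryocyte markers 6 had a negative difference (median -0.15, or -0.19 without control replicate 3), with levels of -0.17, -0.23 and 0.16 on the floxed arrays, against 0.10, 0.12 and -0.014 on the control arrays. For 8 T and NK cell markers the median was -0.093, for 7 markers of stroma and endothelium -0.10 and for the 8 gate genes 0.040. Without control replicate 3 it was -0.17 for T and NK cells, -0.19 for stroma and endothelium and 0.0076 for the gate. Cd3e, a chain of the T cell receptor complex singled out after its value was seen, had 6.41, 6.49 and 6.82 on the floxed arrays, against 7.82, 7.42 and 7.24 on the control arrays. Its groups did not overlap, and its difference of -0.92 (SE 0.20), or -1.05 without control replicate 3, was larger in size than that of any mitoribosomal member (limma adjusted p = 0.915). It does not stand for its list, in which 4 of 8 markers had a positive difference and 4 a negative one, up to 0.18. None of these markers passed the threshold, and their part in the level of the mitoribosomal genes was not tested.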

How the data were processed

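Biotinylated cRNA from 100 ng of total RNA of 3 floxed and 3 control samples was hybridised, per the labels' protocols. The deposited table held log2 values of 241576 probe sets between 2.44 and 14.53. The base was taken from the values. MAS5 was used, per the submitters' processing notes, with its role and version not given. Array medians were 7.56 to 7.65, and nothing was normalized further. The number of arrays limits the precision.

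Probe sets with several symbols (4475) or none (25004) were left out. Gene values (medians over probe sets, without a filter) were tested for 20416 genes with limma 3.58.1 in R 4.3.3 (lmFit, eBayes with trend, two-sided, Benjamini-Hochberg over all genes, threshold 0.05), and the steps were tested on simulated data. A filter at the median signal (7.60) keeps a probe set for 73 of 74 members. Differences are floxed minus control.

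The members and lists were chosen with earlier results of these data known. Named per subunit were the 6 members of smallest p, the 3 of highest and 2 of lowest mean, the 3 of lowest difference and textbook members. From other lists 1 or 2 genes of smallest p were named and, for pathway lists, the highest mean. Same-numbered samples had deviations correlated at 0.18, -0.0065 and -0.16, and differently numbered ones at -0.20 to 0.21. These values show no pairing by number, but with 3 samples per group they cannot exclude it. Alternatives were quantile normalization, equal array medians, filters at the median and the 75th percentile, the mean of probe sets and no trend. Robust eBayes, array weights, a replicate block, updated symbols and leaving out each array made up the rest of the 16. Single probe sets were fitted apart from these.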

Additional observations from a re-analysis of the deposited data

How the results depend on the processing

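Of the 74 members, 0 passed the limma threshold under any of 16 alternatives, and the medians of both subunits stayed positive under each. The replicate block, no trend and robust eBayes leave every difference unchanged by construction, so their medians only repeat the main fit. With each array left out in turn, the large subunit median ran from 0.064 to 0.26 log2 with 29 to 41 genes higher, and the small subunit median from 0.092 to 0.21 with 17 to 24 genes higher. With the replicate number as a block, the 39 large and 22 small subunit genes higher and the medians of 0.16 and 0.15 were thus fixed in advance. The block can alter only the p-values, and no call changed. Equal array medians left 36 large and 21 small subunit genes higher. The count over all genes, 2, was 0 with either filter and 0 to 9 with an array left out. Ctnnb1 passed with the mean of probe sets (-1.53), with array weights (-1.09) and without control replicate 1 (-1.05, range -1.07 to -0.86).

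Apart from Ctnnb1, 39 of 55 named genes moved by over 1.5 times with some array left out and 33 with either filter or the mean of probe sets. Some differences changed sign, Mrps27 and Mrps34 among them, and the cause was not tested. With array weights these were Gadd45gip1 at 0.021, Mrps15 at -0.021, Mrpl44 at -0.0052 and the B cell median at -0.084. With equal medians and quantile normalization the synthetase median was -0.019 and -0.028, Mrpl34 -0.027 and -0.026, and Mrps5 -0.015 and -0.023. The filter at the 75th percentile gave Mrps27 -0.086, Mrps18b 0.024, Mrps34 -0.17, the B cell median -0.068, proteins under other symbols -0.0028 and the gate -0.017. The filter at the median gave Mrps11 0.049 and B cells -0.030. The mean of probe sets gave Mrps11 0.14, Mrps2 0.026, Mrpl45 -0.019 and Mrps18b 0.17. With each array left out, the ranges were -0.14 to 0.14 for Gadd45gip1, -0.0014 to 0.34 for Mrpl3, -0.12 to 0.19 for Mrpl34, -0.014 to 0.25 for Mrpl45, -0.23 to 0.20 for Mrps11, -0.0053 to 0.11 for Mrps15, -0.18 to 0.070 for Mrps18b, -0.21 to 0.038 for Mrps26, -0.011 to 0.40 for Mrps36, -0.12 to 0.15 for Mrps5 and -0.16 to 0.023 for Oxa1l. For list medians they were -0.50 to 0.34 for B cells, -0.0080 to 0.22 for the gate, -0.21 to 0.10 for T and NK cells, 0.028 to 0.24 for translation factors, -0.055 to 0.10 for synthetases, 0.046 to 0.24 for assembly, 0.096 to 0.46 for the stalk and 0.15 to 0.29 for the tunnel exit.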

Other observations

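Some mitoribosomal probe sets carry a second symbol and entered no gene value. The probe set shared by Mrps6 and Slc5a3 had 8.81, 9.06 and 9.06 log2 on the floxed arrays, against 8.53, 8.69 and 8.30 on the control arrays. Its groups did not overlap, with a difference of 0.47 (SE 0.20). The probe set shared by Mrpl12 and Gm15770 differed by 0.11.

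Updating symbols gave member symbols to genes listed under older names. Mrpl42 (listed as D10Ertd322e) had 12.25, 12.31 and 12.12 on the floxed arrays, against 12.41, 11.62 and 11.73 on the control arrays, with overlapping groups and a difference of 0.31. Mrpl57 (listed as Mrp63) differed by -0.17 and was already counted above among the proteins under other symbols. Mrpl58 (listed as Ict1), a peptide release protein of the large subunit, differed by 0.10.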
